A study of Homo sapiens with 6 samples.

Results

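The genes described here encode the machinery that RNA polymerase II and RNA polymerase III need to start transcription. They are the subunits of the 2 polymerases, their general transcription factors, the TBP-associated factors (TAFs) and the subunits of Mediator. They were taken by symbol (names beginning POLR2, POLR3, GTF2, GTF3, TAF or MED followed by a number, plus BRF1 and BRF2), leaving out the 4 TAFs of RNA polymerase I, 3 pseudogenes and 1 antisense gene. This gave 101 genes of the 18164 in the table, of which the annotation lists 99 as protein-coding. The exceptions are POLR2J4, a processed transcript, and TAF12-DT, a long noncoding RNA. TAF12-DT, TAF11L12 and the readthrough transcript POLR2J3-UPK3BL2 entered by symbol only and belong to no complex.

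Expression was measured by RNA-seq in HEK293 cells grown in suspension. HEK293 is an established line from human embryonic kidney with a stretch of adenovirus DNA in its genome. Transfected cells received a two-plasmid system with a polymer reagent so that they would make adeno-associated virus (AAV), and were collected 18 h later. Untransfected cells received PBS in place of both the plasmid DNA and the reagent and were collected at the same time, so the groups differ in DNA, reagent and vector production together. Each group had 3 libraries, and the labels do not state that these were separate cultures. The p-values therefore measure only how these libraries vary, which may be technical.

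RNA polymerase II transcribes messenger RNA genes. Its general factors TFIIA, TFIIB, TFIID, TFIIE, TFIIF and TFIIH assemble on the promoter with it, and TFIID is made of the TATA-binding protein TBP and the TAFs. Mediator is a large complex of head, middle, tail and kinase modules that links activators bound to DNA with the polymerase. RNA polymerase III makes short noncoding RNAs such as transfer RNA, 5S ribosomal RNA and U6. It relies on TFIIIC to recognise most of its promoters and on TFIIIB, built around BRF1 or BRF2, to be recruited. The polymerases share 5 of the subunits named POLR2, namely POLR2E, POLR2F, POLR2H, POLR2K and POLR2L. HEK293 cells make the adenoviral E1A protein, a known partner of this machinery. The comparison asks how abundant the transcripts of this machinery were with and without transfection.

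Levels are given in TPM (transcript abundances), which are corrected for length and sum to a fixed total in every library, so depth is not recorded and no counting error can be given. Changes are log2 folds of TPM + 1, transfected over untransfected, from limma fitted across all genes that reached 1 TPM in 3 or more libraries. Where TPM are set against each other, the values of transfected replicates 1 to 3 come before those of untransfected replicates 1 to 3. A gene is called higher or lower where the Benjamini-Hochberg adjusted p over all tested genes is below 0.05. Libraries held 15714 to 16138 genes at 1 TPM or more. The 13 mitochondrially encoded mRNAs took 27.11% to 30.05% of TPM in transfected and 30.01% to 36.42% in untransfected libraries, with the highest share in untransfected replicate 3. That library had the lowest value of its group for 77 of the 95 tested genes of the machinery (81.1%), against 64.3% of all tested genes. The part of this in the differences was examined by leaving the library out. The 3 other scalings given below also bear on it, and the lower calls depended on them. All 8 marker genes of the HEK293 line that were looked for are listed, from LHX1 at 0.33 to 0.57 TPM to NEFL at 66.8 to 80.0 TPM. Of 15 markers of other cell types 6 are listed. COL1A1 at 12.2 to 15.5 TPM and LUM at 7.16 to 15.5 TPM were the highest, and ALB was at 0.73 to 1.13 TPM in transfected and 0.05 to 0.21 TPM in untransfected libraries.

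Of the 101 genes, 95 passed the filter on low values. Among them 23 were higher in transfected cells (24.2%, against 20% of all tested genes) and 2 were lower (2.11%, against 10.2%), while 70 were not called; 30.2% of all tested genes were called in either direction. The genes called higher were MED10, POLR3C, GTF2H1, TAF10, MED27, MED13, TAF4B, TAF3, BRF2, MED13L, MED19, TAF12, GTF3C5, GTF2F2, MED1, TAF2, POLR3A, POLR3K, MED29, GTF3C1, POLR3E, TAF9B and MED15. The genes called lower were MED16 and TAF6L. Log2 folds were small. Of the 25 calls, 4 were larger than 0.5 in size, no log2 fold among the 95 genes reached 1 in size, and the median over the 95 was 0.092 against 0.050 over all tested genes. All 3 transfected values lay above all 3 untransfected values for 28 genes (29.5%, against 29.2% of all tested genes) and below them for 9 (9.47%, against 17.3%). The summed TPM of the 101 genes were 5136, 5333 and 5339 in transfected and 5014, 5043 and 4565 in untransfected libraries, so the groups did not overlap and untransfected replicate 3 was lowest. The sums share a fixed total with the mitochondrial mRNAs, which took 36.42% in that library and 27.11% to 30.05% in transfected ones. They were not recomputed without these mRNAs, so they do not by themselves show a rise of the machinery.

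The count of lower calls depended on scaling and the higher calls did so much less. Median-ratio scaling gave 25 higher and 8 lower, quantile normalization 20 and 10, and rescaling the total after removing the mitochondrial mRNAs with the 20 genes of highest TPM 22 and 13. The shares of all tested genes called lower under these scalings were 17.3%, 17.9% and 19.3%, called higher 19.1%, 18.1% and 16.4%, and called in either direction 36.4%, 36.0% and 35.7%. The higher genes thus made up 92.0% of calls among the machinery on deposited TPM and 75.8%, 66.7% and 62.9% under the other scalings. Of the 25 genes called on deposited TPM, 24, 20 and 24 were called in the same direction, and none was called in the opposite one. Leaving out single libraries, higher calls numbered 14 without transfected replicate 3, 15 without transfected replicate 2 and 18 to 24 otherwise, and lower calls were 5 without untransfected replicate 3 and 2 otherwise. The share of all tested genes called with a library left out is not set beside these counts, here or below. A fall in calls therefore cannot be told apart from a fall across all genes. For 15 of the 25 genes the call held with every single library left out, and the 10 others are named below with the libraries concerned.

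**Figure D1:**
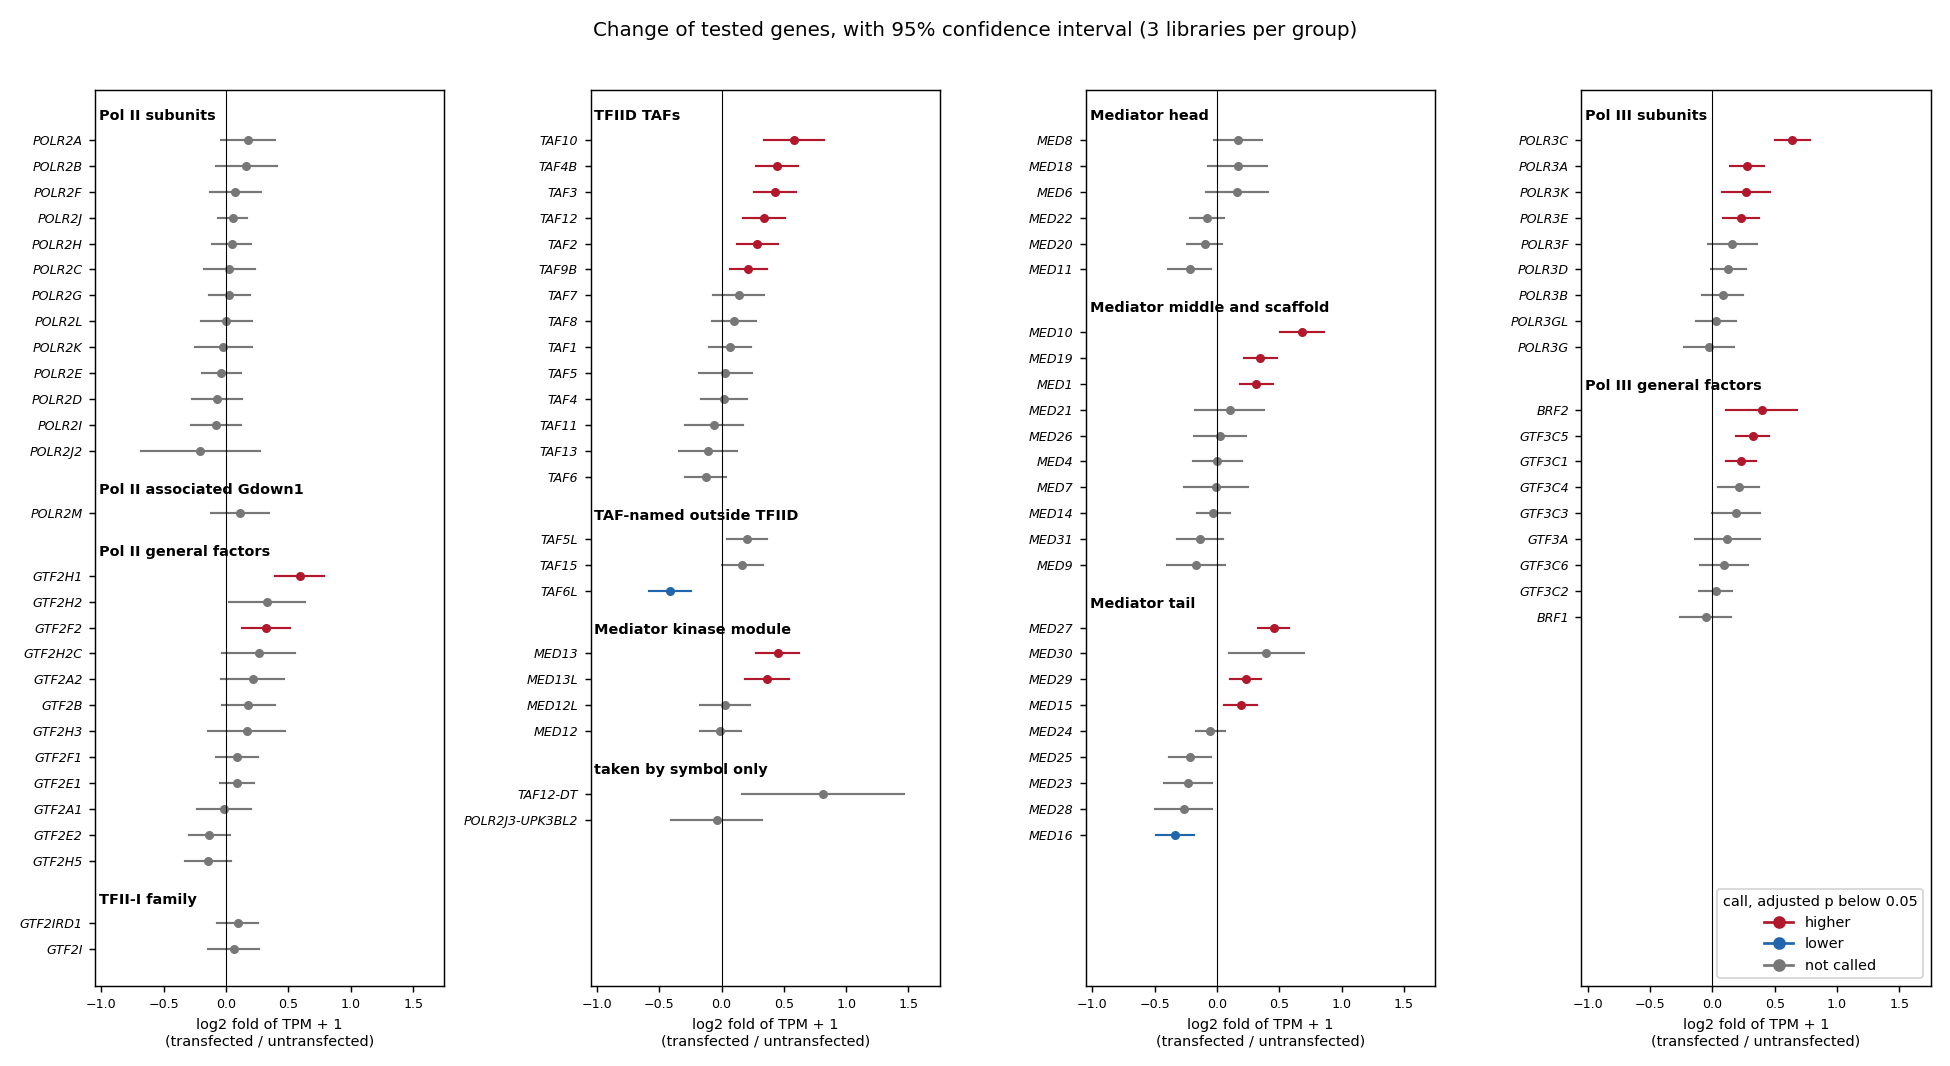
Log2 fold of TPM + 1 (transfected over untransfected) of tested genes, ordered by size within its complex, with the 95% confidence interval from limma over 3 libraries per group; red marks genes called higher, blue genes called lower and grey genes not called. All 13 intervals among the polymerase II subunits cross 0, whereas 6 TFIID TAFs and 4 polymerase III subunits lie to the right and MED16 and TAF6L to the left.

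The core enzyme, RNA polymerase II, showed no called subunit. None of its 13 tested subunits passed in limma on deposited TPM, 0 had an unadjusted p below 0.05 (median log2 fold 0.025), and the 5 it shares with the other polymerases had a median of 0.0027. POLR2A, the largest subunit, whose C-terminal tail is phosphorylated through the transcription cycle, had 189, 187 and 173 TPM in transfected replicates 1 to 3 and 158, 144 and 187 TPM in untransfected replicates 1 to 3. Untransfected replicate 3 lay within the range of the transfected libraries and the other untransfected values lay below it (log2 fold 0.18, 95% interval -0.041 to 0.39, limma adjusted p = 0.193). Without untransfected replicate 3 POLR2A was called higher (0.28, limma adjusted p = 0.0147). Leaving out transfected replicate 1 as well, POLR2A was again called higher (0.25, limma adjusted p = 0.0194). POLR2B, the second largest subunit, had 130.4, 152 and 146 TPM against 141, 136 and 108 TPM (interval -0.083 to 0.41). POLR2L, a small subunit found in all the polymerases, had the highest level, 225, 184 and 196 TPM against 211, 183 and 210.1 TPM, and the groups overlapped (interval -0.20 to 0.21). POLR2J was next at 197, 188 and 196 TPM against 186, 183 and 190.2 TPM. Its near-identical copies POLR2J2 and POLR2J3 were at 0.52 to 1.9 TPM and POLR2J4 at 0.22 to 1.02 TPM, and the split of reads among such copies is uncertain. POLR2I was called lower under quantile normalization alone (-0.082 on deposited TPM, -0.21 there, limma adjusted p = 0.0372), and 79.6% of its exonic length overlaps other genes, TBCB on the opposite strand among them. The other subunits, POLR2C, POLR2D, POLR2E, POLR2F, POLR2G, POLR2H and POLR2K, had overlapping groups and log2 folds from -0.072 for POLR2D to 0.074 for POLR2F. POLR2D was called lower without transfected replicate 1 and untransfected replicate 3 together (log2 fold -0.20, limma adjusted p = 0.0124). The summed TPM of the 15 genes of these subunits were 1417, 1364 and 1415 in transfected and 1403, 1361 and 1321 in untransfected libraries. POLR2M, which encodes Gdown1, a protein that binds the polymerase and makes it dependent on Mediator, was not called at 10.9, 11.5 and 11.4 TPM against 11, 11.5 and 8.83 TPM. POLR2A, POLR2B and POLR2I were chosen for the text after their values were seen.

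Among the 12 general factors of polymerase II outside TFIID, GTF2H1 and GTF2F2 were higher and none was lower, also at an unadjusted p below 0.05 (limma; median log2 fold 0.17). The 2 are 16.7% of the 12, against 20% of all tested genes called higher. GTF2H1 encodes the p62 core subunit of TFIIH, the factor that opens promoter DNA, phosphorylates the polymerase and also serves nucleotide excision repair. It had 46.7, 48.2 and 46.2 TPM in transfected replicates 1 to 3 and 34, 31.9 and 27.2 TPM in untransfected replicates 1 to 3. The lowest transfected value was above the highest untransfected one (log2 fold 0.59, SE 0.084, limma adjusted p = 0.00211), and its call held under all the alternatives. GTF2F2 is the small subunit of TFIIF, which escorts the polymerase to the promoter, and had 33, 35 and 35.3 TPM against 27.6, 30.5 and 24.5 TPM (log2 fold 0.32, SE 0.084, limma adjusted p = 0.0241). Its groups did not overlap, but the call was lost without transfected replicate 2 or 3 or untransfected replicate 1 (limma adjusted p = 0.0624 to 0.0864). Its partner GTF2F1, the most abundant of these factors, had 136, 144 and 153 TPM against 135, 147 and 125 TPM and overlapping groups (interval -0.084 to 0.26).

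Without transfected replicate 2 or 3 or untransfected replicate 1 only GTF2H1 was called in this list, and without untransfected replicate 2 GTF2H2 joined them.

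The other TFIIH genes named GTF2H were not called. GTF2H3 had 43.8, 52.1 and 47.4 TPM against 49.1, 46.1 and 33.7 TPM, and GTF2H5, the smallest subunit, 14, 15.9 and 15.1 TPM against 17.6, 17.2 and 15.4 TPM. GTF2H2 and its copy GTF2H2C had 7.49, 9.33 and 8.29 TPM against 6.42, 7.79 and 5.35 TPM and 3.91, 4.73 and 5 TPM against 3.62, 4.23 and 3.06 TPM, values that depend on how reads were split between near-identical genes. GTF2B, the single protein that forms TFIIB and sets the start site with the polymerase, had 69.8, 77.5 and 76 TPM against 65.2, 74.5 and 58.2 TPM (interval -0.035 to 0.39), and the TFIIA genes GTF2A1 and GTF2A2 overlapped between groups too. GTF2E2, a subunit of TFIIE, and GTF2H5 were called lower under all 3 other scalings (log2 folds -0.19 to -0.23 and -0.18 to -0.24) but not on deposited TPM (-0.13 and -0.15). GTF2B, GTF2E2, GTF2H3 and GTF2H5 were chosen after their values were seen. TFII-I, a DNA-binding factor named GTF2I despite not being a general factor, had 29.4, 33.8 and 31.5 TPM against 32, 32 and 26.8 TPM, and its relative GTF2IRD1 20.4, 19.6 and 20.8 TPM against 18.6, 20.4 and 17.9 TPM. Neither was called, and GTF2I has pseudogene copies that can take its reads. GTF2IRD2B, at 0.16 to 0.52 TPM, was not tested. GTF2H4 was not analysed here.

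**Figure D2:**
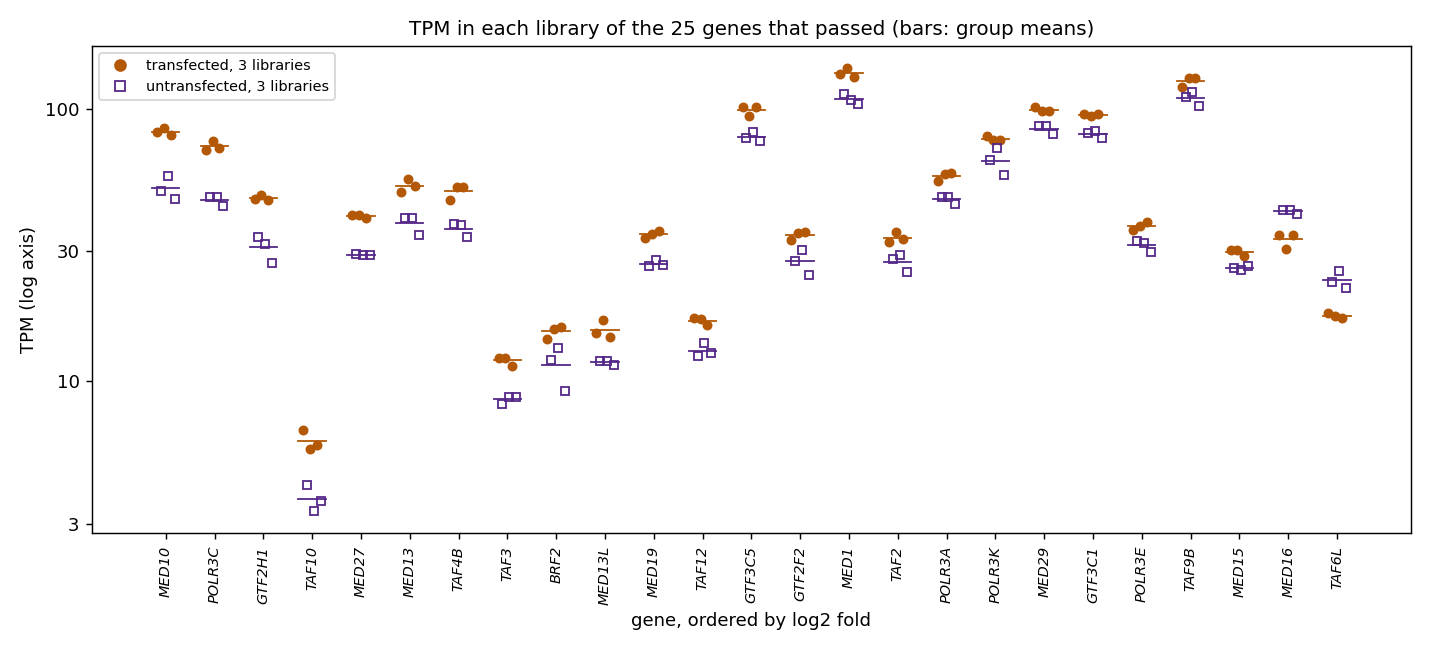
TPM of the 25 genes that passed, on a log axis, in each of the 3 transfected (filled circles) and 3 untransfected (open squares) libraries, ordered by log2 fold, with bars at the group means. No gene shown has overlapping groups; MED10, POLR3C, GTF2H1 and TAF10 have the widest gaps on this axis, and MED16 and TAF6L alone have the untransfected values on top.

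Of 14 tested TAFs of TFIID 6 were higher and 0 lower, with 0 lower also at an unadjusted p below 0.05 (limma), and the median log2 fold was 0.12. The 6 are 42.9% of the TAFs, against 20% of all tested genes called higher. They were TAF10, TAF4B, TAF3, TAF12, TAF2 and TAF9B, and the other 8 were not called. TAF4B, a paralog of the scaffold subunit TAF4, had 46.3, 51.6 and 51.6 TPM in transfected replicates 1 to 3 and 37.8, 37.5 and 33.8 TPM in untransfected replicates 1 to 3, with no overlap (log2 fold 0.45, SE 0.072, limma adjusted p = 0.0033). TAF3, whose PHD finger reads trimethylated lysine 4 of histone H3, had 12.2, 12.2 and 11.4 TPM against 8.27, 8.79 and 8.78 TPM (log2 fold 0.43, SE 0.073, limma adjusted p = 0.00421). TAF12, the histone-fold partner of TAF4, had 17.1, 17 and 16 TPM against 12.4, 13.8 and 12.7 TPM (log2 fold 0.34, SE 0.073, limma adjusted p = 0.0102). These 3 calls held under all the alternatives. TAF2, which contacts the initiator element, had 32.5, 35.3 and 33.2 TPM against 28.1, 29 and 25.2 TPM and a log2 fold of 0.29. TAF9B had 121, 130.1 and 130.1 TPM against 110.2, 116 and 102 TPM and a log2 fold of 0.21. The TAF2 call was lost without transfected replicate 2 or 3 (limma adjusted p = 0.0636 to 0.0808) and that of TAF9B without transfected replicate 2 or 3 or untransfected replicate 1 or 3 (limma adjusted p = 0.0537 to 0.136), so 4 TAFs were higher without transfected replicate 2 or 3. Quantile normalization also ended the TAF9B call. TAF2 and TAF9B fell outside the rule for named genes and were chosen after their values were seen.

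TAF10, a histone-fold subunit of both TFIID and the SAGA coactivator, had the largest log2 fold of the TAFs at a low level. It had 6.64, 5.65 and 5.87 TPM in transfected replicates 1 to 3 and 4.16, 3.35 and 3.65 TPM in untransfected replicates 1 to 3 (log2 fold 0.58, SE 0.10, limma adjusted p = 0.00508). Every transfected value was above every untransfected one, and the call held under all the alternatives. This level was far below that of its histone-fold partner TAF8, at 11.97 to 14.57 TPM, and 51.2% of its exonic length overlaps other genes, of which ILK lies on the opposite strand; the strand setting of the counting is not given in the sources used here, so reads of the 2 genes may not have been told apart. TAF1, the largest TAF, had 27.2, 29.6 and 27.9 TPM against 27.8, 28.5 and 24.8 TPM and overlapping groups. TAF7, which binds TAF1, was the most abundant gene of all 101 with 219, 250.3 and 244 TPM against 228, 230.5 and 191 TPM (interval -0.064 to 0.34), and its relative TAF7L, at 0.26 to 1.16 TPM, was not tested. TAF5, TAF6, TAF11 and TAF13 had log2 folds of 0.03, -0.13, -0.059 and -0.11 and overlapping groups. TAF1, TAF5, TAF6, TAF8, TAF11 and TAF13 are given for the account of the complex and not by their change. TAF9 was not analysed here. TAF12-DT, a noncoding RNA divergent from TAF12, had 4.67, 5.85 and 3.03 TPM against 1.49, 3.73 and 1.46 TPM with overlapping groups and was not called (log2 fold 0.81, SE 0.28, limma adjusted p = 0.0624), though it was called higher without transfected replicate 3 or untransfected replicate 2 (log2 folds 1.02 and 1.12, limma adjusted p = 0.047 and 0.0113). POLR2J3-UPK3BL2 was at 1.53 to 2.46 TPM and not called, and TAF11L12, at 0 to 0.48 TPM, was not tested.

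Of the 3 tested TAF names outside TFIID, 1 was lower and none higher. TAF6L, the SAGA counterpart of TAF6, was lower, with 17.8, 17.3 and 17.1 TPM in transfected replicates 1 to 3 and 23.2, 25.4 and 22.1 TPM in untransfected replicates 1 to 3. All transfected values were below all untransfected ones (log2 fold -0.41, SE 0.072, limma adjusted p = 0.00445), and the call held under all the alternatives. It is on chr11:62771303-62787342, plus strand (GRCh38), and 21.1% of its exonic length overlaps other genes, with TMEM223 on the opposite strand. TAF5L, the SAGA counterpart of TAF5, had 46.3, 51.6 and 50.6 TPM against 45.1, 43.4 and 40.2 TPM, which did not overlap and was not called (log2 fold 0.20, SE 0.069, limma adjusted p = 0.0585). It was called higher under median-ratio scaling, without transfected replicate 1, and without transfected replicate 1 and untransfected replicate 3 together (limma adjusted p = 0.0154 in the last). TAF15, an RNA-binding protein, had 76.3, 89.95 and 82.9 TPM against 75.5, 75.8 and 70.1 TPM and was not called (log2 fold 0.17, SE 0.072, limma adjusted p = 0.119). With transfected replicate 1 and untransfected replicate 3 left out together, TAF15 was called higher (log2 fold 0.19, limma adjusted p = 0.0274).

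Of 29 tested Mediator subunits 8 were higher and 1 was lower, and the median log2 fold was 0.022. These are 27.6% and 3.45% of them, against 20% and 10.2% of all tested genes. Counts by module rest on few genes. The head had 0 called of 6 (limma; 1 at an unadjusted p below 0.05, MED11), the middle module with its scaffold MED14 had 3 higher of 10, the tail 3 higher and 1 lower of 9, and the kinase module 2 higher of 4. Differences between modules were not tested.

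MED10, a small subunit of the middle module, had the largest called change of the whole machinery. It had 82.3, 84.8 and 80.4 TPM in transfected replicates 1 to 3 and 49.7, 56.7 and 46.7 TPM in untransfected replicates 1 to 3. The lowest transfected library was 80.4 TPM and the highest untransfected library 56.7 TPM (log2 fold 0.69, SE 0.077, limma adjusted p = 0.000849). The gene (ENSG00000133398) is on chr5:6371881-6378594, minus strand (GRCh38), and none of its exonic length overlaps another gene. MED19, which joins the middle module to the polymerase, had 33.6, 34.9 and 35.6 TPM against 26.6, 27.8 and 26.8 TPM (log2 fold 0.35, SE 0.058, limma adjusted p = 0.00385). MED1, the large subunit that binds nuclear receptors and is abundant at super-enhancers, had the highest level in Mediator with 134, 141 and 131 TPM against 114, 108 and 104 TPM (log2 fold 0.32, SE 0.057, limma adjusted p = 0.00524). All 3 calls held under all the alternatives. The scaffold MED14, which runs through the core of the complex, had 87.4, 96.3 and 91.3 TPM against 92.3, 96.9 and 91.2 TPM, and MED4, MED7, MED9, MED21, MED26 and MED31 likewise overlapped between groups. MED14 and the subunits in that list were not chosen by their change. Under the other scalings 3 of them were called lower. They were MED14 by quantile normalization (log2 fold -0.15), MED9 by median-ratio scaling and the rescaling (-0.23 and -0.26), and MED31 by the rescaling (-0.23).

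In the tail, which most activators contact, MED27 was higher and MED16 lower. MED27 had 40.9, 40.8 and 39.7 TPM in transfected replicates 1 to 3 and 29.4, 29.1 and 29.1 TPM in untransfected replicates 1 to 3 (log2 fold 0.46, SE 0.054, limma adjusted p = 0.00105), so the largest untransfected value was 29.4 TPM and the smallest transfected one 39.7 TPM. MED16 had 34.3, 30.6 and 34.5 TPM in transfected replicates 1 to 3 and 42.4, 42.6 and 41.1 TPM in untransfected replicates 1 to 3 (log2 fold -0.33, SE 0.066, limma adjusted p = 0.00737). Transfected values were all below untransfected ones. Both calls held under all the alternatives. MED29 had 102, 98.5 and 97.8 TPM against 86.4, 86.3 and 80.6 TPM and MED15, a target of SREBP and of Smad factors, 30.3, 30.4 and 28.8 TPM against 26, 25.6 and 26.6 TPM. Their groups did not overlap, but both changes were small (log2 folds 0.23 and 0.19). The MED29 call was lost without transfected replicate 1, 2 or 3 (limma adjusted p = 0.0509 to 0.0534), and that of MED15 without transfected replicate 1, 2 or 3 or untransfected replicate 1 or 2 (limma adjusted p = 0.0877 to 0.131), so the tail had 1 higher subunit without any 1 of the transfected libraries and 2 without untransfected replicate 2. The MED15 call was lost under all 3 other scalings, and that of MED29 under quantile normalization. MED30 had 29.9, 29.4 and 28.4 TPM against 25.9, 23.5 and 17.4 TPM and missed the threshold (log2 fold 0.40, SE 0.13, limma adjusted p = 0.0519). It was called higher under median-ratio scaling, quantile normalization, a pseudocount of 5 and the filter of 5 TPM (limma adjusted p = 0.0392 to 0.0491). It was also called without untransfected replicate 1 (log2 fold 0.51, limma adjusted p = 0.0263), without untransfected replicate 3 (log2 fold 0.23, limma adjusted p = 0.0331), without transfected replicate 1 and untransfected replicate 3 together (limma adjusted p = 0.0396), and with the replicate block (limma adjusted p = 0.041). Without untransfected replicate 3 the tail had 4 higher and 3 lower.

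Several subunits of the head and tail had a lower mean in transfected cells without passing on deposited TPM. MED11, in the head, had 39.4, 36.1 and 42.5 TPM against 46.8, 47.7 and 43.2 TPM (log2 fold -0.22, SE 0.076, limma adjusted p = 0.0603). MED23, a tail subunit that receives signals from Elk1 and from E1A, had 32.5, 37.4 and 38.4 TPM against 44.1, 44.5 and 39.2 TPM (log2 fold -0.23, SE 0.083, limma adjusted p = 0.066), and MED28 had 31.7, 37.2 and 38.2 TPM against 44.9, 46.7 and 38 TPM (log2 fold -0.27, SE 0.10, limma adjusted p = 0.0777). These 3 were called lower under all 3 other scalings and without untransfected replicate 3, alone or together with transfected replicate 1. Across Mediator, lower calls were 1 on deposited TPM, 5 by median-ratio scaling, 6 by quantile normalization and 10 after the rescaling, and 4 without untransfected replicate 3, while higher calls stayed between 6 and 9 over the single libraries left out and the scalings. MED8, the most abundant head subunit, had 62.6, 63 and 68.9 TPM against 56.9, 64 and 52.2 TPM (interval -0.021 to 0.36). MED17, the scaffold of the head, was listed at only 0.81 to 0.87 TPM in transfected and 0.95 to 1.25 TPM in untransfected libraries and did not reach the filter, and 13.5% of its exonic length overlaps other genes, TAF1D on the opposite strand among them. MED6 and MED18 of the head overlapped between groups, and MED20, MED22, MED24 and MED25 had all transfected values below the untransfected ones without passing in the main fit (log2 folds -0.10, -0.078, -0.054 and -0.22). All 4 were called lower under the rescaling, and MED24 also under quantile normalization. MED25 was also called lower with the filter of 5 TPM, and without transfected replicate 1 and untransfected replicate 3 together (limma adjusted p = 0.0494 and 0.0240). MED6, MED17, MED18, MED20, MED22 to MED25, MED28 and MED30 were chosen after their values were seen.

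The kinase module, which docks on Mediator and blocks its contact with the polymerase, is built of CDK8 or CDK19, cyclin C, MED12 or MED12L and MED13 or MED13L. MED13, the large subunit that links the kinase to the core, had 49.7, 55 and 51.9 TPM in transfected replicates 1 to 3 and 39.6, 39.8 and 34.5 TPM in untransfected replicates 1 to 3 (log2 fold 0.45, SE 0.075, limma adjusted p = 0.00382). Its paralog MED13L had 15.1, 16.8 and 14.6 TPM against 11.9, 11.9 and 11.5 TPM (log2 fold 0.36, SE 0.076, limma adjusted p = 0.0095). Both calls held under all the alternatives, and in neither did the groups overlap. MED12, which activates the kinase, had 22.7, 22.2 and 22.4 TPM against 21.7, 21.6 and 24.6 TPM, and MED12L 7.71, 8.61 and 7.61 TPM against 7.62, 8.34 and 7.44 TPM, both with overlapping groups (intervals -0.17 to 0.16 and -0.17 to 0.23). CDK8 itself was higher with 47.3, 48.7 and 49.6 TPM against 39.9, 38.1 and 34 TPM (log2 fold 0.37, SE 0.071, limma adjusted p = 0.00652). CDK19 and cyclin C (CCNC) had 10.8, 13.2 and 13.4 TPM against 13.6, 13.4 and 11.8 TPM and 80.5, 99.9 and 104 TPM against 100.1, 95.9 and 75.1 TPM, were not called and were chosen after their values were seen.

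**Figure D3:**
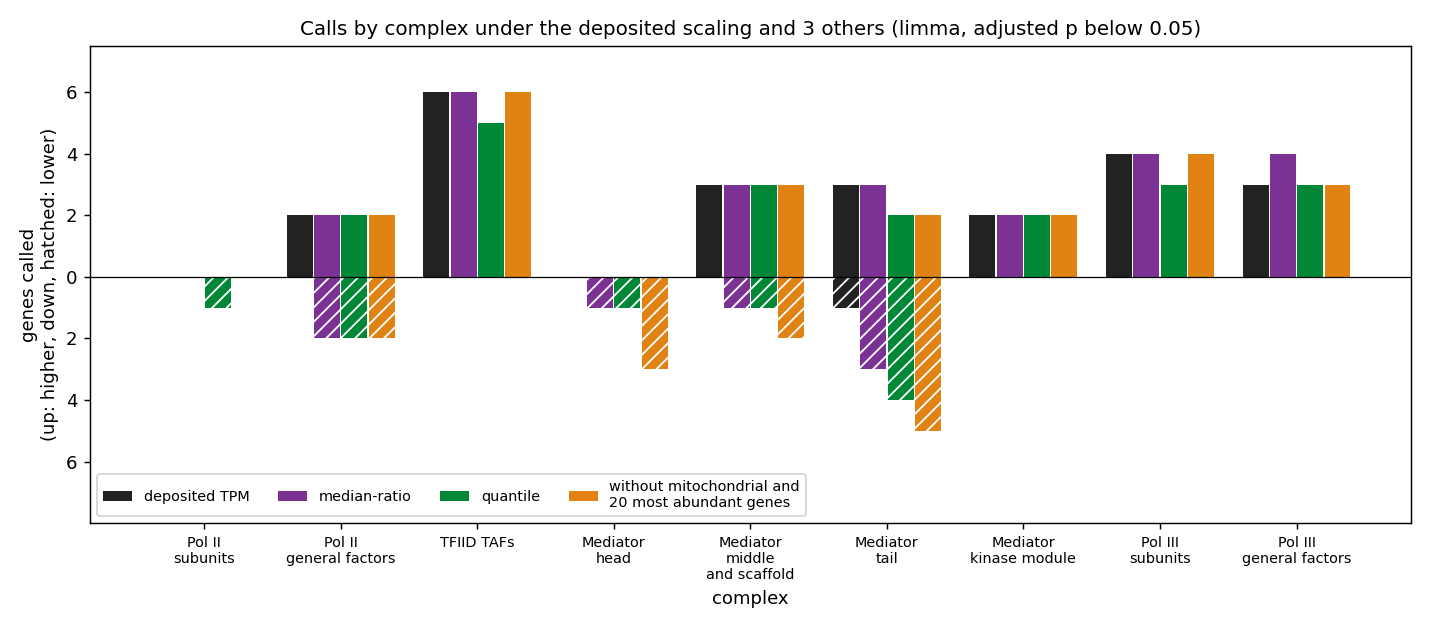
Number of genes called higher (bars up) and lower (hatched bars down) in each complex under the deposited scaling and 3 others (limma, adjusted p below 0.05). Higher calls differ by at most 1 gene between scalings in every complex shown, whereas the lower calls of the Mediator tail go from 1 to 5 and those of the head from 0 to 3.

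The genes named for RNA polymerase III and its factors had higher calls and no lower ones. These counts take only genes selected by symbol. CRCP, POLR1C, POLR1D and BDP1 are counted with the partners below, and the 5 shared subunits with polymerase II. Of 10 subunits named POLR3, 4 were higher (median log2 fold 0.14), and of 9 general factors 3 (median 0.19). The 7 are 36.8% of the 19, against 20% of all tested genes called higher, and none of the 19 was lower at an unadjusted p below 0.05 (limma). Under the 3 other scalings the 19 genes gave 6 to 8 higher and 0 lower. The number varied with the library left out. It was 7 with all libraries, 2 without transfected replicate 3, 4 when transfected replicate 2 or untransfected replicate 1 was removed, 5 when transfected replicate 1 was removed, 6 without untransfected replicate 2, and again 7 when untransfected replicate 3 was removed. The summed TPM of the 10 subunits named POLR3 were 485, 512 and 498 in transfected and 442, 455 and 401 in untransfected libraries, with no overlap. These sums too were not recomputed without the mitochondrial mRNAs.

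POLR3C carries the largest change. It encodes a subunit of the trimer with POLR3F and POLR3G or POLR3GL that opens the promoter and contacts TFIIIB. Its values were 70.7, 76.1 and 71.9 TPM in transfected replicates 1 to 3 and 47.5, 47.5 and 44 TPM in untransfected replicates 1 to 3. Each transfected library was at least 70.7 TPM and no untransfected library was above 47.5 TPM (log2 fold 0.64, SE 0.06, limma adjusted p = 0.000468), and the call held under all the alternatives. The gene (ENSG00000186141) is on chr1:145824088-145842505, plus strand (GRCh38), with no exonic overlap. Its partners in the trimer were not called. POLR3F had 38.1, 44.6 and 42.5 TPM against 38.8, 39.5 and 33.5 TPM, POLR3G 48.3, 56.2 and 50.4 TPM against 55.1, 55.9 and 47.2 TPM and POLR3GL 27.1, 27.2 and 25.8 TPM against 25.6, 28.1 and 24.9 TPM, and for each the groups overlapped; differences between subunits were not tested.

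POLR3A, the largest subunit, had 54.4, 57.6 and 58.1 TPM against 47.4, 47.7 and 44.7 TPM (log2 fold 0.28, SE 0.058, limma adjusted p = 0.00935). POLR3K, the small subunit that takes part in termination and the most abundant of the set, had 79.5, 76.7 and 77 TPM against 65.1, 71.5 and 57.1 TPM (log2 fold 0.27, SE 0.082, limma adjusted p = 0.0393), and POLR3E had 35.9, 37.1 and 38.6 TPM against 32.8, 32.1 and 29.9 TPM (log2 fold 0.23, SE 0.063, limma adjusted p = 0.0282). In none of them did the groups overlap. Their calls were less firm than that of POLR3C. The call of POLR3A was lost without transfected replicate 3 (limma adjusted p = 0.0501), that of POLR3K without transfected replicate 1, 2 or 3 or untransfected replicate 1 (limma adjusted p = 0.0869 to 0.101) and that of POLR3E without transfected replicate 2 or 3 or untransfected replicate 1 or 2 (limma adjusted p = 0.0551 to 0.117). Quantile normalization ended the call of POLR3K and no other of these. POLR3B, the second largest subunit, had 48.8, 52.1 and 50.8 TPM against 50.8, 48.8 and 43.5 TPM (interval -0.079 to 0.25), and POLR3D was not called either.

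Among the general factors of polymerase III taken by symbol, GTF3C5 and GTF3C1 of TFIIIC and BRF2 of TFIIIB were higher. GTF3C5, of the part of TFIIIC that binds the A box, had 102, 93.9 and 101 TPM against 78.4, 81.9 and 76.4 TPM (log2 fold 0.32, SE 0.058, limma adjusted p = 0.00527), and its call held under all the alternatives. GTF3C1, the largest TFIIIC subunit, had 95.8, 93.8 and 95.3 TPM against 81.4, 82.8 and 78.3 TPM (log2 fold 0.23, SE 0.051, limma adjusted p = 0.0121). BRF2, which replaces BRF1 at the upstream promoters of U6 and similar genes, had 14.3, 15.6 and 15.9 TPM against 12, 13.2 and 9.19 TPM (log2 fold 0.40, SE 0.12, limma adjusted p = 0.0426). None of the 3 had overlapping groups. The GTF3C1 call was lost without transfected replicate 3 (limma adjusted p = 0.0582) and the BRF2 call without transfected replicate 1, 2 or 3 or untransfected replicate 1 (limma adjusted p = 0.0567 to 0.124). Quantile normalization also ended the GTF3C1 call, and fitting without the filter on low values that of BRF2. For BRF2, 59.0% of the exonic length overlaps ADGRA2 on the opposite strand. BRF1, used at most other promoters, had 9.57, 8.49 and 10.3 TPM against 9.39, 10.1 and 9.93 TPM (interval -0.26 to 0.15).

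GTF3C6 was the most abundant factor of the set with 208, 239 and 233 TPM against 224, 224 and 190.1 TPM and overlapping groups. GTF3C4 had 38.8, 42.5 and 41.7 TPM against 37.5, 35.8 and 32.6 TPM, without overlap and not called on deposited TPM (log2 fold 0.21, SE 0.072, limma adjusted p = 0.0566), and was called higher with either median-ratio scaling or quantile normalization. GTF3C2, GTF3C3 and GTF3A, the factor for 5S ribosomal RNA genes, had overlapping groups and log2 folds of 0.027, 0.19 and 0.12. Without transfected replicate 1 and untransfected replicate 3 together, GTF3C3 and GTF3C4 were called higher (log2 folds 0.16 and 0.20, limma adjusted p = 0.0204 and 0.0228). GTF3C4, GTF3C2, GTF3C3 and GTF3A were not chosen by the rule for named genes.

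To show the sequence around the start sites of the genes with the largest calls, promoters were read from RefSeq (GRCh38.p14), which held a window of 250 bases before to 50 after the start for 77 of the 101 genes. The genes POLR3C, GTF2H1, MED10 and TAF6L were taken after their values were seen, as the 3 largest positive calls and the largest negative one. The 250 bases before the RefSeq start are shown 5′ to 3′ on the strand of the gene. Capitals mark matches, on either strand, to CACGTG (the E-box core), CCGGAAG (an ETS motif), TGCGCA (the core of the NRF1 motif), TATAAA (the TATA box), CCAAT (the motif of NF-Y) and GGGCGG (a GC box). None of these motifs holds another within it. RefSeq starts differ from the gene starts of GENCODE release 29 used for the positions above.
POLR3C, chr1:145823950-145824199, plus strand: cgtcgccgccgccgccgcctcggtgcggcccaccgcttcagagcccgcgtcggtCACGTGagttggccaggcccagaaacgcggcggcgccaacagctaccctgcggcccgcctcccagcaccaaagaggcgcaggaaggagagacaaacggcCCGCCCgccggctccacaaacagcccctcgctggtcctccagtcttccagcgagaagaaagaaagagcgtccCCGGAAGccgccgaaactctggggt
GTF2H1, chr11:18322317-18322566, plus strand: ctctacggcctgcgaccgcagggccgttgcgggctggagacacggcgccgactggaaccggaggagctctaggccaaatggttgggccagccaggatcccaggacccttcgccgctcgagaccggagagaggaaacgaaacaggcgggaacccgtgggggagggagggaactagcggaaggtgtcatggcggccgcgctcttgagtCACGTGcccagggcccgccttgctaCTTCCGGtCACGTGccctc
MED10, chr5:6378548-6378797, minus strand: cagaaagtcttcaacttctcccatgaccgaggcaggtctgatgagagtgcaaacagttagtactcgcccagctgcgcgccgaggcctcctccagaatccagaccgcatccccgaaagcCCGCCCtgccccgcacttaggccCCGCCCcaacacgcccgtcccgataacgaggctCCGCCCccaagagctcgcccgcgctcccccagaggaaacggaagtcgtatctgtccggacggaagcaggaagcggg
TAF6L, chr11:62771146-62771395, plus strand: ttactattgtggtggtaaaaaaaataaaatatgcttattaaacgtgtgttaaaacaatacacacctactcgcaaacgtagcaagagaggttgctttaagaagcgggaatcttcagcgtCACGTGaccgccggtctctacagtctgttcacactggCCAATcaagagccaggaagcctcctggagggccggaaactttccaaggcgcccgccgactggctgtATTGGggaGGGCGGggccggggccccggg
POLR3C has an E-box core, a GC box and an ETS motif, in that order toward the start. GTF2H1 has an ETS motif between 2 E-box cores, all within its last 44 bases. MED10 has 3 GC boxes and no E-box core, and TAF6L, the lower gene, has an E-box core, 2 CCAAT boxes and a GC box. A match is a description of the letters and not evidence of a bound factor.

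Over the whole 300-base window, CACGTG occurred in 7 of 20 matched higher genes (35.0%), 7 of 52 not called (13.5%), 15 of all 77 matched (19.5%) and 9.94% of the 12414 promoters of genes in the table. The 7 higher genes were MED13L, GTF2H1, POLR3A, POLR3C, POLR3E, TAF12 and TAF4B. Of the 2 lower genes TAF6L had it and MED16 did not. CCGGAAG was in 42.9% of the 77 and 17.7% of all promoters, and its share was 40.0% among the higher genes and 46.2% among those not called. TGCGCA was in 23.4% against 13.0%, TATAAA in 9.09% against 6.02%, CCAAT in 31.2% against 36.5% and GGGCGG in 61.0% against 68.6%. These shares were not tested.

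The levels within complexes ranged widely. Among polymerase II subunits the mean over 6 libraries went from 35.4 TPM for POLR2F to 202 TPM for POLR2L, leaving out the POLR2J copies. Polymerase III subunits named POLR3 were more alike, from 26.4 TPM for POLR3GL to 71.1 TPM for POLR3K. In TFIIIC, GTF3C6 was at 220 TPM and GTF3C4 at 38.1 TPM. In Mediator, MED1 was at 122.0 TPM, and MED17 at 0.962 TPM and MED26 at 5.76 TPM were lowest.

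**Figure D4:**
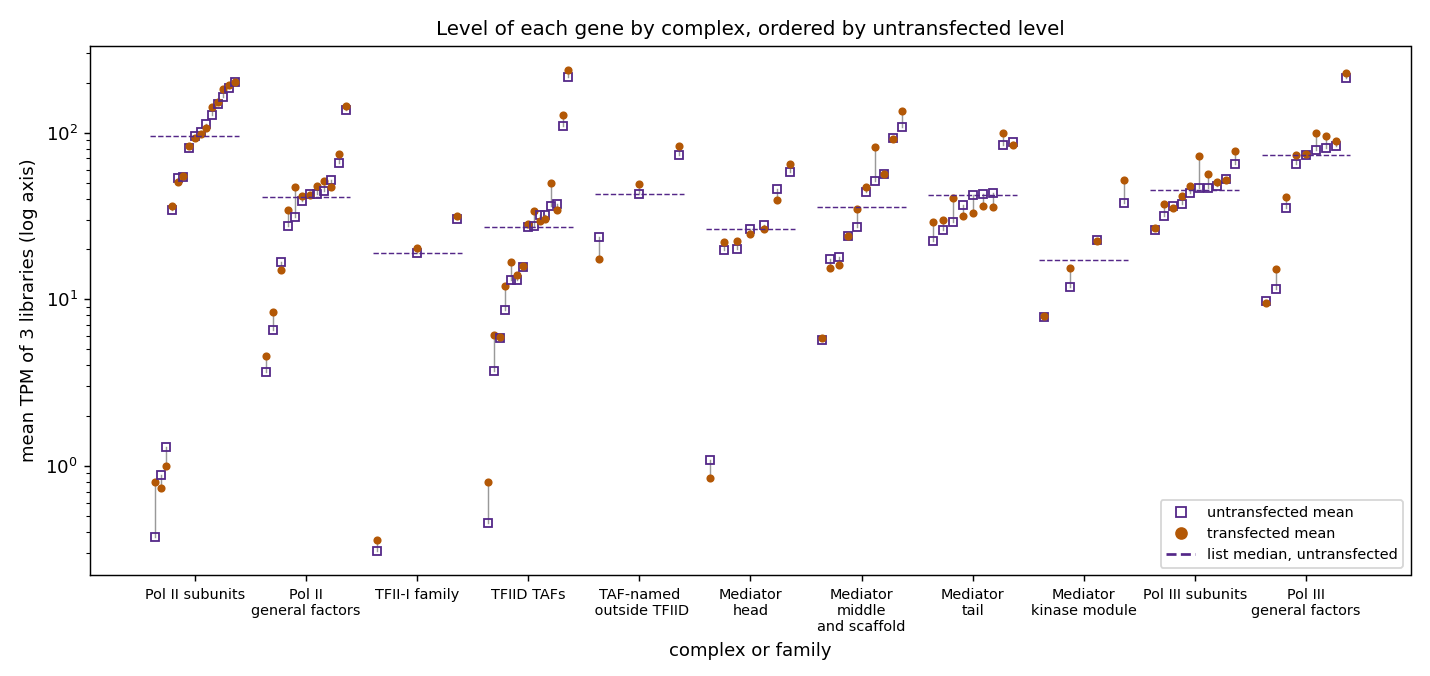
Mean TPM over 3 libraries of the genes of each complex or family (log axis), untransfected as open squares and transfected as filled circles joined by a line, ordered by untransfected level within each complex, with a dashed line at the median of the untransfected means. The lowest points are the POLR2J copies, GTF2IRD2B, TAF7L and MED17, all near or below 1 TPM, and the highest are TAF7, GTF3C6 and POLR2L.

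The share of the second gene in a pair of paralogs separated the groups in 4 of 11 pairs and overlapped in the other 7. Groups did not overlap for 46.5% of all tested genes taken singly, but that is a measure of single genes and not of shares within pairs. No such share was computed for other pairs of genes, so whether the count of 4 is unusual was not tested. TAF4B held 88.6%, 89.8% and 89.6% of the summed TPM of TAF4 and TAF4B in transfected and 86.7%, 86.9% and 84.8% in untransfected libraries, and TAF4 was at 5.63 to 6.08 TPM in all 6. BRF2 held 60.0%, 64.7% and 60.8% of the BRF1 and BRF2 sum against 56.1%, 56.6% and 48.1%, and the lowest of these was untransfected replicate 3. In both pairs the groups did not overlap. TAF6L held 32.6%, 34.0% and 34.7% of its sum with TAF6 against 39.6%, 40.1% and 36.2%, also without overlap, and TAF5L 75.7% ± 0.834 (SD, n = 3) of its sum with TAF5 against 73.4% ± 0.549 (SD, n = 3). The shares of MED13L (22.8% ± 0.796 against 23.7% ± 1.14, SD, n = 3), MED12L (26.2% ± 1.52 against 25.7% ± 2.35) and POLR3GL (34.1% ± 1.70 against 33.2% ± 1.46) had overlapping groups. GTF2H2C held 35.2% ± 2.13 of its sum with GTF2H2 against 35.9% ± 0.617 (SD, n = 3), also with overlap. TAF7L beside TAF7, and POLR2J2 and POLR2J3 beside POLR2J, held under 1% of their sums in all 6 libraries, with overlapping groups. The shares are descriptions and were not tested.

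**Figure D5:**
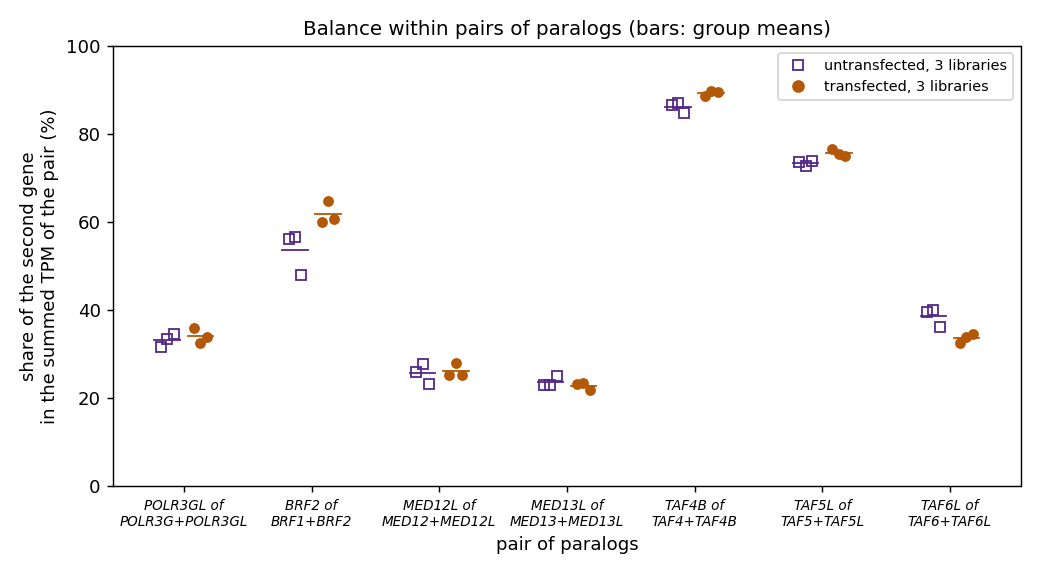
Share of the second-named gene in the summed TPM of a pair of paralogs (%), in each of 3 untransfected (open squares) and 3 transfected (filled circles) libraries, with bars at the group means. The groups separate for BRF2, TAF4B, TAF5L and TAF6L, and overlap for POLR3GL, MED12L and MED13L; the 4 other pairs, which also overlap, are not drawn.

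Genes that work with this machinery but carry other names were counted in the same fit. Of 13 tested partners of the initiation complex 5 were higher and none lower: CDK8, MNAT1, BTAF1, DR1 and CDK7. The 5 are 38.5% of the list, against 20% of all tested genes called higher and 10.2% called lower. ERCC2 was lower at an unadjusted p below 0.05 only (limma). It was called lower under 6 alternatives, namely no filter, the filter of 5 TPM, the 3 other scalings, and without transfected replicate 1 and untransfected replicate 3 together (limma adjusted p = 0.0226 to 0.04996). MNAT1 and CDK7 belong to the TFIIH kinase, and MNAT1 had 46, 48.6 and 49.8 TPM against 38.4, 38.6 and 34 TPM (log2 fold 0.37, SE 0.07, limma adjusted p = 0.00633). BTAF1, which strips TBP from DNA, had 93.3, 111 and 103 TPM against 87.3, 84.1 and 70.3 TPM, and its call was lost without transfected replicate 2 or 3 (limma adjusted p = 0.0863 to 0.108). Without transfected replicate 2 only 2 of the 5 were called, and without transfected replicate 3 there were 3. TBP, shared by all 3 polymerases, had 71.9, 75.1 and 75.1 TPM against 72.3, 68.6 and 66.7 TPM and overlapping groups (interval -0.033 to 0.23). The TFIIH helicase genes ERCC2 and ERCC3 had 59.1, 52.7 and 56.3 TPM against 61.6, 64.1 and 67.3 TPM and 32, 39.6 and 37.5 TPM against 39.3, 38.9 and 34.3 TPM and were not called with all libraries and the main settings. TBP, ERCC2 and ERCC3 were chosen after their values were seen.

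Partners of polymerase III showed 7 higher and 1 lower of 13 tested (53.8% and 7.69%, against 20% and 10.2% of all tested genes), with a median log2 fold of 0.30. ZNF143, an activator of small nuclear RNA genes, had 23.7, 26.2 and 27 TPM in transfected replicates 1 to 3 and 16.2, 17.1 and 13.4 TPM in untransfected replicates 1 to 3 (log2 fold 0.69, SE 0.10, limma adjusted p = 0.00211). SNAPC1, a subunit of the complex that binds those genes' proximal element, had 17.6, 18.2 and 20.1 TPM against 13.3, 12.9 and 11.9 TPM (log2 fold 0.52, SE 0.079, limma adjusted p = 0.00268), and POU2F1, which binds their octamer, 22.3, 23.6 and 21.4 TPM against 16.5, 15.9 and 15.3 TPM (log2 fold 0.47, SE 0.069, limma adjusted p = 0.00227). These 3 calls held with every single library left out, and no groups overlapped. The other higher genes were CRCP, a polymerase III subunit, BDP1 of TFIIIB, the La protein gene SSB and POLR1D. The lower gene was MAF1, the repressor of polymerase III, with 99.3, 93.5 and 102 TPM against 120.3, 130.5 and 121 TPM (log2 fold -0.33, SE 0.06, limma adjusted p = 0.00547), named after its value was seen. Of the 20 transcripts of polymerase III that were looked for, 3 are in the table, and none was called or had an unadjusted p below 0.05 with all libraries and the main settings (limma). RN7SL1, the RNA of the signal recognition particle, had 927, 544 and 239 TPM in transfected replicates 1 to 3 and 224, 441 and 272 TPM in untransfected replicates 1 to 3, so the spread among transfected libraries covered all the untransfected values but 1. RNU6-8 had 24.6, 38.4 and 42.3 TPM against 53.1, 56.2 and 36.7 TPM, with overlap. RNU6-8 was called lower when the libraries were rescaled without the mitochondrially encoded and most abundant genes (log2 fold -0.57, limma adjusted p = 0.0485) and without untransfected replicate 3 (log2 fold -0.66, limma adjusted p = 0.0405). Without transfected replicate 1 and untransfected replicate 3 together it was also called lower (log2 fold -0.43, limma adjusted p = 0.00358). RN7SL1 was called higher without transfected replicate 3 (log2 fold 1.24, limma adjusted p = 0.0318). For RN7SL1, 100% of the exonic length overlaps AL139099.4 on the same strand, so reads of both genes may not have been told apart. RN7SL1 and RNU6-8 have only 299 and 107 bases of exons. How evenly the libraries captured such short RNAs was not tested, so these values do not measure polymerase III output.

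Polymerase assembly and transport factors had 7 higher and 0 lower of 13 (53.8% higher, against 20% of all tested genes), with 0 lower also at an unadjusted p below 0.05 (limma). Under the 3 other scalings this list had 6 to 8 higher and 0 to 2 lower calls. RPAP2, a phosphatase of the polymerase II tail that also takes part in its import, had 16.9, 19.7 and 18.4 TPM against 11, 11.4 and 10.04 TPM (log2 fold 0.71, SE 0.085, limma adjusted p = 0.00108). RUVBL1, an ATPase of the R2TP chaperone, had 160.2, 171 and 171 TPM against 126, 126 and 112 TPM, and POLR1A, the largest subunit of polymerase I, 30.6, 31.3 and 30.3 TPM against 23.3, 22.8 and 22.2 TPM (log2 fold 0.42, SE 0.058, limma adjusted p = 0.0019). In all 3 the groups did not overlap. The list also holds POLR1B, and POLR1A and POLR1B are polymerase I subunits and not assembly or transport factors. Both were called higher and are among the 7. Factors of pausing and elongation had 11 higher and 1 lower of 29 (37.9% and 3.45%, against the same 20% and 10.2%). ELL had 19.3, 18.2 and 18.5 TPM against 13, 11.6 and 11.4 TPM, SUPT6H, a histone chaperone that travels with the polymerase, 159, 156 and 147 TPM against 101, 99.3 and 105 TPM, and NELFA of the pausing factor NELF 42, 34.2 and 35.9 TPM against 24.6, 26.6 and 27 TPM (log2 fold 0.50, SE 0.086, limma adjusted p = 0.00433). The lower gene was HEXIM1, an inhibitor of the elongation kinase P-TEFb, with 60.7, 68.1 and 65.9 TPM against 75.6, 77.8 and 73 TPM and a log2 fold of -0.22, named after its value was seen. Without transfected replicate 2 or untransfected replicate 1 this list had 7 higher calls, and it had 0 lower ones without any 1 of 5 libraries and 2 without untransfected replicate 3. Under the 3 other scalings the list had 8 to 11 higher and 3 to 5 lower calls. NELFB, also of NELF, was called lower under all 3 (log2 folds -0.23 to -0.27) but not on deposited TPM (-0.17). CDK9, the kinase of P-TEFb, was also called lower under all 3 (log2 folds -0.22 to -0.25). On deposited TPM CDK9 was not called, at 39.25, 39.4 and 42.6 TPM against 44.2, 45.1 and 46.1 TPM (log2 fold -0.16, limma adjusted p = 0.0795). Its cyclin genes CCNT1 and CCNT2 were not called on deposited TPM either (log2 folds 0.14 and 0.23). NELFB, CDK9, CCNT1 and CCNT2 were named after their values were seen.

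SAGA genes other than TAFs had 4 higher and 2 lower of 14, with a median log2 fold of -0.014. These are 28.6% and 14.3%, against 20% and 10.2% of all tested genes. SGF29, which reads methylated histone H3, had 23, 22.5 and 19.6 TPM against 16.9, 16.8 and 15.6 TPM (log2 fold 0.38, SE 0.08, limma adjusted p = 0.0102). ATXN7, of the deubiquitinase module, had 15, 15.1 and 14.9 TPM against 11.7, 11.9 and 11.3 TPM, and TRRAP, the large protein that activators contact, 49.5, 50.5 and 48.1 TPM against 41.1, 42.4 and 38.8 TPM. SUPT20H was the fourth. The TRRAP call was lost without transfected replicate 2 (limma adjusted p = 0.0501). TADA3 and ATXN7L3 were the lower genes, with 64.4, 58.1 and 64.1 TPM against 69.2, 77.5 and 74.1 TPM and 43.8, 43.2 and 46.8 TPM against 53.5, 54.4 and 48.2 TPM. Without transfected replicate 2 only 2 SAGA genes were higher, and lower calls were 0 without transfected replicate 2 or 3 or untransfected replicate 2, 1 without transfected or untransfected replicate 1 and 3 without untransfected replicate 3. Under the 3 other scalings the SAGA list had 3 to 4 higher and 3 to 5 lower calls.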

How the data were processed

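RNA-seq libraries were prepared from total RNA with a stranded TruSeq kit and sequenced on a NextSeq system with paired reads of 75 nt, per the labels' protocols. The deposited values are TPM per gene and library, calculated by the authors; STAR and GRCh38 are named in the submitters' processing notes, and how reads were counted, with which strand setting and annotation, and how genes were chosen is not given in the sources used here. There are 18298 rows in the deposited table for 18164 Ensembl IDs; 134 rows repeat an ID with identical values and were dropped. Symbols are those deposited, and 2665 IDs without one could not be members. Each library sums to 1000000 TPM within 1, so depth is unknown and a larger share of abundant transcripts lowers the rest. Positions, gene types and exon overlap came from GENCODE release 29 (GRCh38), promoters from RefSeq (GRCh38.p14).

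The groups were compared with limma 3.58.1 in R 4.3.3 on log2(TPM + 1), with 1 group term, 3 libraries per group, a variance trend, two-sided tests and Benjamini-Hochberg adjustment over the 16145 genes that reached 1 TPM in 3 or more libraries, threshold 0.05. Log2 folds on this scale understate changes of low genes. The fit was run on simulated data with noise drawn separately for each gene and library, and the outcome is not given here. Shifts common to a whole library were not simulated. Members and lists were chosen with earlier results of these data known. Lists have no test of their own; counts come from the fit across all genes. The rule for named genes took, in each complex, up to 4 genes that passed, by size, with at least 5 TPM in the higher group, the most abundant gene, or the 2 most abundant where fewer than 2 passed; over all members the 5 largest called changes in each direction and any called against most of its list; both members of paralog pairs; and up to 3 called partners per list. Other genes were chosen after their values were seen. Some values are not reported here, although counts over lists include their genes. Alternatives were pseudocounts of 0.1 and 5, no filter, a 5 TPM filter, median-ratio and quantile scaling, rescaling after removing mitochondrial mRNAs with the 20 genes of highest TPM, no variance trend, a replicate block, leaving out each library, and leaving out transfected replicate 1 with untransfected replicate 3.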

Additional observations from a re-analysis of the deposited data

How the results depend on the processing

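None of the 25 calls turned to the other direction under any of the 16 alternatives. Genes of the machinery called higher numbered 23, and 18 to 29 under all alternatives except leaving out single libraries, where the range was 14 to 24. Genes called lower numbered 2, and 8 under median-ratio scaling, 10 under quantile normalization, 13 under the rescaling that removes mitochondrial mRNAs and the 20 genes of highest TPM, 7 without transfected replicate 1 and untransfected replicate 3 together, and 2 to 5 with single libraries left out. The median log2 fold, 0.092, was 0.011 under quantile normalization, -0.0034 under the rescaling and 0.035 to 0.13 with single libraries left out; by construction these scalings centre libraries or change the total. The replicate number as a block gave 18 higher and 2 lower, ended the calls of BRF2, GTF3C1, MED15, MED29, POLR3E, POLR3K and TAF9B and added MED30 and TAF12-DT (limma adjusted p = 0.041 and 0.0112). Deviations of same-numbered libraries from their group means correlated at -0.18, 0.11 and -0.16 across genes. The largest correlation, 0.31, was between transfected replicate 1 and untransfected replicate 3. These values show no pairing by number, but they cannot exclude that same-numbered libraries shared a culture or preparation. TPM keep no depth, so counting error cannot be set beside small or low values.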
